A study of Mus musculus with 16 samples.

Results

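The centromere and kinetochore genes examined here are 34 mouse genes listed by name, covering the histone variant of the centromere, the proteins that sit on it throughout the cell cycle, and the complexes that attach chromosomes to spindle microtubules in mitosis. All 34 matched a RefSeq gene, out of 21887 protein-coding genes on build mm10. The series mapped 2 histone marks, H3K4me2 and H3K27ac, and the transcription factor E2f4 by ChIP-seq (chromatin immunoprecipitation and sequencing) in mouse liver taken 40 h after a partial hepatectomy, the removal of most of the organ. All mice were 90 days old and of a mixed C57/B6 and 129 background, and all carried Arid1a Fl/Fl, so that the WT group is floxed without Cre. The KO group carried Arid1a Fl/Fl with Alb-cre, in which the albumin promoter drives Cre in hepatocytes. Which other liver cells keep the gene was not measured here. E2f4 had 2 libraries per genotype and each mark 1 library per genotype. Whether the replicates are separate animals is not stated, and their spread may be technical. Tissue was frozen, fixed, and then taken through hepatocyte isolation, per the labels' protocols.

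The centromere is marked by nucleosomes that hold CENP-A in place of histone H3. A constitutive network of CENP proteins binds these nucleosomes, and in mitosis it carries the KNL1, MIS12 and NDC80 complexes, which hold microtubules, and an outer corona with motor proteins and checkpoint factors. Their genes are known for being transcribed late in the cell cycle. E2f4 binds such promoters in resting cells together with RB-related pocket proteins and the MuvB complex. In this assembly E2f4 contacts E2F sites, and MuvB contacts the cell cycle homology region (CHR). Arid1a belongs to SWI/SNF, a complex that remodels chromatin. H3K4me2 is found at promoters and enhancers, and H3K27ac at those in an active state.

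Peak lists were the only data, with no read numbers, so depth is unknown and a weaker library yields fewer peaks. For E2f4, WT replicates 1 and 2 had 1791 and 1058 peaks, and KO replicates 1 and 2 had 287 and 683. The H3K4me2 regions added up to 104 Mb (WT) and 112 Mb (KO), those of H3K27ac to 113 and 104 Mb. The labelled liver origin was checked on 8 hepatocyte genes, all of which were covered by each mark in each genotype. E2f4 summits were absent from the lists at these 8 genes and at 25 marker genes of lymphocytes, endothelium, macrophages, stellate cells and fibroblasts, or cholangiocytes. Summed over 5 lymphocyte genes, H3K4me2 went from 14964 bp in WT to 1704 bp in KO, and over 5 endothelial genes from 13541 to 23158 bp. In such tissue libraries, fewer cells that carry a mark and less of the mark per cell cannot be told apart.

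E2f4 was called at most centromere and kinetochore genes in WT liver. A gene was counted when the summit of a peak lay within 1000 bp of its marked end, the annotated gene end with more H3K4me2. A summit was called at 31 of the 34 genes in WT replicate 1 and at 28 in WT replicate 2. The matching shares of the 15074 genes with H3K4me2 at the marked end were 9.11% and 6.54%. In KO the numbers were 7 genes in replicate 1 and 25 in replicate 2, against 1.58% and 4.51% of those genes. The mean was 29.5 ± 2.12 genes in WT and 16 ± 12.7 in KO (SD, n = 2 each). The KO libraries lay far apart, and KO replicate 2 was close to both WT libraries. For a single gene, a two-sided exact permutation test has 6 ways to assign the libraries and cannot give a p below 0.333, so no gene could pass a test.

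Both WT libraries had a summit at 28 of the 34 genes, where 5.33% of genes with H3K4me2 did. Of these 28, 7 were called in all 4 libraries, 17 were also called in KO replicate 2 and not in KO replicate 1, and 4 had no KO summit. Over all genes called in both WT libraries, 28.4% were called in all 4 (1.51% of genes with H3K4me2) and 28.0% had no KO summit, so the share called in all 4 was near the background. The number without a KO summit rests on KO replicate 2, since without it 21 of the 28 had none. Cenpl, Zwint and Ska2 had a summit in WT replicate 1 and not in WT replicate 2, and Ska2 also in KO replicate 2. Cenpc1, Cenpt and Cenpx had none at the marked end in any library. No gene had a summit in KO alone.

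**Figure D1:**
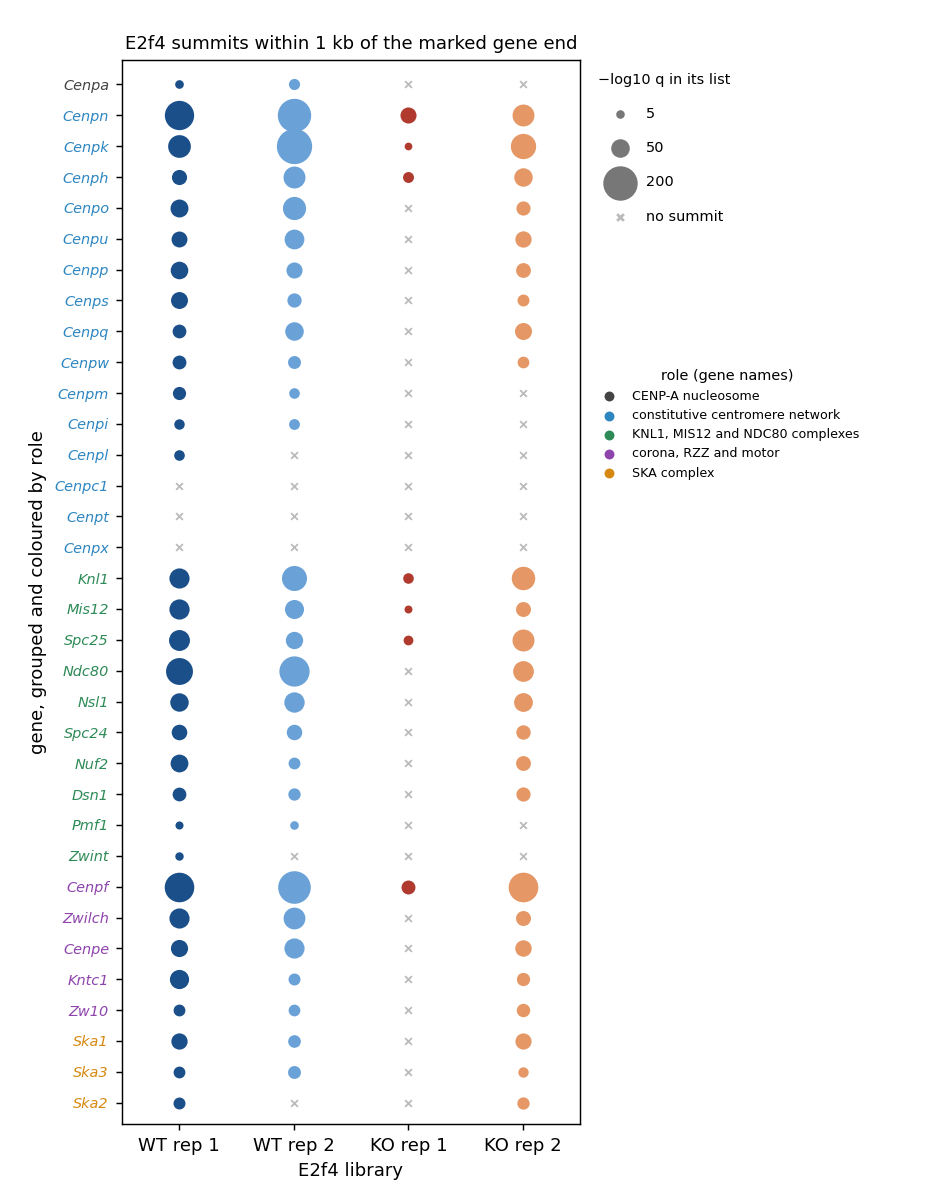
Each row is 1 gene and each column 1 E2f4 library, and the area of a circle grows with the −log10 q-value of the strongest peak within 1000 bp of the marked gene end, with crosses where no summit was called. WT replicates 1 and 2 hold 31 and 28 circles, KO replicate 1 holds 7 and KO replicate 2 holds 25.

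In WT replicate 1 the peaks of these genes were among the stronger ones. By −log10 q-value within the list their median rank was 253 of 1791, against 676.5 for the other genes with a summit, and 74.2% of them lay in the strongest 25% of the list, against 33.5% of the other genes. In WT replicate 2 the median rank was 283 of 1058 against 476.5, and in KO replicate 2 it was 236 of 683 against 324. In KO replicate 1, with 7 genes, the median ranks were 112 and 109 of 287. The shares in the strongest 25% were 50% against 27.9% in WT replicate 2, 28.6% against 33.3% in KO replicate 1 and 36% against 26.9% in KO replicate 2. Ranks describe order within a list, and ranks from lists of different length are not compared.

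The genes without a KO summit had low-ranked WT peaks. The 7 genes called everywhere ranked 17 to 314 in WT replicate 1 and 30 to 260 in WT replicate 2. The 17 genes called in KO replicate 2 but not in KO replicate 1 ranked 34 to 515 and 64 to 544. The 4 genes without a KO summit ranked 414 to 1348 and 605 to 933. In WT replicate 2 the last range does not overlap the others, while in WT replicate 1 it overlaps that of the 17 genes. The same ranks over all genes called in both WT libraries are not given here. The order is therefore not shown to be particular to these genes.

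The sequences below are promoters of genes called in all 4 libraries (Cenpf, Cenpn and Knl1), of genes called in WT alone (Cenpi and Cenpa) and of genes with no summit at the marked end (Cenpc1 and Cenpt). They show the letters around the start in each class, and some summits lie past the stretch shown, among them both Cenpi summits, the Cenpn summits of WT replicate 1 and KO replicate 2 and the Knl1 summits of WT replicate 1 and KO replicate 2. They come from RefSeq (GRCm38.p6, the coordinates of mm10) and run 5′ to 3′ on the gene's strand from 150 bases before an annotated start through 30 bases from it. Capitals mark E2F and CHR letters on either strand. The E2F letters searched were TTCCCGC, and the variants with other middle bases, which are TTCGCGC, then TTGCCGC, and finally TTGGCGC. The CHR letters searched were TTTGAA, and its longer form TTTCGAA.
Cenpf, chr1:189688057-189688236, minus strand: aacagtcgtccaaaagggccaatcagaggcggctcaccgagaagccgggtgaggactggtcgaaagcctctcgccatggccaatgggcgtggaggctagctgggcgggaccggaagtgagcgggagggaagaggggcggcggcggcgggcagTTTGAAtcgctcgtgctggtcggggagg
Cenpn, chr8:116921590-116921769, plus strand: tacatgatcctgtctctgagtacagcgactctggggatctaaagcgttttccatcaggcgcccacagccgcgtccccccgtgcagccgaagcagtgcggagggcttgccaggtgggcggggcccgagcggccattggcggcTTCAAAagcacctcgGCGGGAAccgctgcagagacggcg
Knl1, chr2:119046969-119047148, plus strand: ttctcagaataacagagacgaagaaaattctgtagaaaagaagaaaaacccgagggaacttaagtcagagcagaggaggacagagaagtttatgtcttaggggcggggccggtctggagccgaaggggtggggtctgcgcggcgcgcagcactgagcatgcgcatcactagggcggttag
Cenpi, chrX:134307934-134308113, plus strand: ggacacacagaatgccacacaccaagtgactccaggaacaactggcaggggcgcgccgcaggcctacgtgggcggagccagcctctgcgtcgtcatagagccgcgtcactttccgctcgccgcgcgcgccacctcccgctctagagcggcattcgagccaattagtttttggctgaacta
Cenpa, chr5:30666736-30666915, plus strand: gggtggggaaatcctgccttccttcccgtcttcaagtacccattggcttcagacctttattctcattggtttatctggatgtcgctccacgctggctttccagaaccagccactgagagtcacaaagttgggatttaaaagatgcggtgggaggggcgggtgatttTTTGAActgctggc
Cenpc1, chr5:86065554-86065733, minus strand: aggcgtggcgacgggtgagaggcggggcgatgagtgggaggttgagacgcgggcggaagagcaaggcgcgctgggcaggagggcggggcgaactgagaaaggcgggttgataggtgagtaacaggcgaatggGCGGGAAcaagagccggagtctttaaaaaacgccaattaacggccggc
Cenpt, chr8:105851979-105852158, minus strand: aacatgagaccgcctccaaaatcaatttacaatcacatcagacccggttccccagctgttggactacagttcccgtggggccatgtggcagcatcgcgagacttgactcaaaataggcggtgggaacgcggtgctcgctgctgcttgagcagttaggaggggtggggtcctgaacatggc

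Cenpn holds both kinds of letters side by side, Cenpf and Cenpa hold CHR letters just after the start, and the Cenpi stretch, which ends before its summits, holds neither. Knl1 holds CHR letters from base 32, after the stretch shown. Cenpc1 holds E2F letters although no E2f4 summit was called there. The Cenpt stretch is a special case. Its annotated start lies 3078 bp inside the outer gene end, and both WT libraries had a summit 3016 and 3030 bp from that end (ranks 682 and 862), within the stretch printed above, while no KO library did. At its annotated start Cenpt was therefore called in WT, though not at its marked end.

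The CENP-A nucleosome gene Cenpa, which encodes the histone H3 variant itself (gene ID 12615, chromosome 5, 30666877 to 30674837), had weak peaks in WT and none in KO. It ranked 1080 of 1791 in WT replicate 1 with an authors' fold enrichment of 5.03, and 605 of 1058 in WT replicate 2 with a fold of 9.21. Both summits lay within 4 bp of each other, 25 and 29 bp outside the gene end.

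The constitutive centromere network had 15 genes, of which 11 were called in both WT libraries, 9 also in KO replicate 2 and 3 in all 4. Cenpn, whose product reads the CENP-A nucleosome (chromosome 8, 116921716 to 116941504), ranked 19 and 41 in the WT lists, 30 in KO replicate 1 and 72 in KO replicate 2. Cenpk, a member of the CENP-H, CENP-I, CENP-K and CENP-M subcomplex (chromosome 13, 104228611 to 104249622), ranked 89 and 30 in WT, with 253 and 37 in KO. Its summits lay 320 to 328 bp inside the gene end, close to a further annotated start at 355 bp. Cenph, of the same subcomplex (chromosome 13, 100759674 to 100775903), ranked 314 and 159 in WT, with 107 and 140 in KO.

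The partners of Cenph and Cenpk were weaker. Cenpi (chromosome X, 134308084 to 134363104) ranked 662 and 633 in WT and had no KO summit. Cenpm (chromosome 15, 82233762 to 82244773) ranked 414 and 666 in WT, also without a KO summit, and its WT summits were 144 bp apart. The subcomplex thus held genes called in all 4 libraries and genes called in WT alone.

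The genes of the CENP-O, CENP-P, CENP-Q and CENP-U subcomplex were each called in the same 3 libraries. Cenpo ranked 187 and 135 in WT and 257 in KO replicate 2, and Cenpp ranked 201 and 306 in WT and 241 there. Cenpq ranked 375 and 235 in WT and 164 in KO replicate 2, and Cenpu ranked 272 and 205 in WT and 191 there. None of the 4 was called in KO replicate 1.

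The histone-fold proteins CENP-T, CENP-W, CENP-S and CENP-X form a further subcomplex, whose genes differed. Cenps ranked 225 and 381 in WT and 374 in KO replicate 2, and Cenpw ranked 372 and 453 in WT and 389 there. Cenpx had no summit, and Cenpt had none at its marked end, as described above. Cenpl, the partner of Cenpn, was called in WT replicate 1 alone (rank 648), and Cenpc1, which encodes the link from CENP-A nucleosomes to the MIS12 complex, in no library.

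The genes of the KNL1, MIS12 and NDC80 complexes numbered 10, of which 9 were called in both WT libraries, 8 also in KO replicate 2 and 3 in all 4. Ndc80, the microtubule-binding subunit (chromosome 17, 71496100 to 71526857), ranked 34 and 64 in WT and 102 in KO replicate 2. No summit was called at it in KO replicate 1, although its WT peaks were stronger by rank than those of several genes called there. Its partners Nuf2 (ranks 191 and 537 in WT, 239 in KO replicate 2) and Spc24 (287 and 319 in WT, 250 in KO replicate 2) were called in 3 libraries too. Spc25 (chromosome 2, 69193895 to 69206213) was called in all 4, at ranks 114 and 260 in WT, with 145 and 70 in KO.

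Knl1, the scaffold for the BUB checkpoint proteins (chromosome 2, 119047119 to 119110497), ranked 129 and 106 in WT, with 112 and 51 in KO. Its binding partner Zwint had a single weak peak, at rank 1161 of WT replicate 1. Of the MIS12 complex, Mis12 (chromosome 11, 71019568 to 71027371) ranked 128 and 219 in WT, with 244 and 237 in KO. Nsl1 ranked 172 and 187 in WT and 131 in KO replicate 2, and Dsn1 ranked 378 and 493 in WT and 258 there. Pmf1 had the weakest peaks of the genes called in both WT libraries, at ranks 1348 and 933, with summits 200 bp apart and none in KO.

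All 5 corona, RZZ and motor genes were called in WT replicates 1 and 2 and in KO replicate 2. Cenpf, a corona protein gene (chromosome 1, 189640606 to 189688107), had the strongest peak of the 34 genes in WT replicate 1 and in KO replicate 2. It ranked 17 and 46 in WT, with 54 and 12 in KO, with authors' folds of 46.4, 47.6, 11.6 and 47.6 for its peaks. Cenpe, which encodes the kinetochore kinesin, ranked 216 and 195 in WT and 181 in KO replicate 2. The RZZ complex recruits dynein to kinetochores. Its genes Zwilch (135 and 163 in WT, 236 in KO replicate 2), Kntc1 (157 and 527 in WT, 303 in KO replicate 2) and Zw10 (515 and 544 in WT, 296 in KO replicate 2) were not called in KO replicate 1.

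The SKA complex helps kinetochores follow shortening microtubules, and all 3 of its genes were called in WT replicate 1 and in KO replicate 2. Ska1 ranked 253 and 473 in WT and 197 in KO replicate 2, and Ska3 ranked 512 and 455 in WT and 480 there. Ska2 had a pair of summits in WT replicate 1, at ranks 488 and 770 and on opposite sides of the gene end, and 1 in KO replicate 2 at rank 353, on the outer side. An end of Prr11 lies 547 bp outside the Ska2 end. The outer summits, at -381 bp in WT replicate 1 and -438 bp in KO replicate 2, are nearer to Prr11. They cannot be assigned to Ska2 alone.

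Summits of a gene coincided between libraries. For 29 genes with a summit in 2 or more libraries, the strongest peaks of all those libraries overlapped, and the summits spanned a median of 19 bp (range 2 to 200 bp). In 23 of the 29 the span was 50 bp or less. Closeness is in part built in, since all summits of a gene were counted near the same end. The same counts over other genes are not given here, so they are not shown to be particular to these genes. Summits lay a median of 35 bp inside the marked end in WT replicate 1 and 34.5, 17 and 30 bp in WT replicate 2, KO replicate 1 and KO replicate 2. Zw10 and Ska2 were the genes with all of their strongest summits over 100 bp outside the gene, at positions from -163 to -160 bp at Zw10 and at -381 and -438 bp at Ska2 (negative values lie outside).

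**Figure D2:**
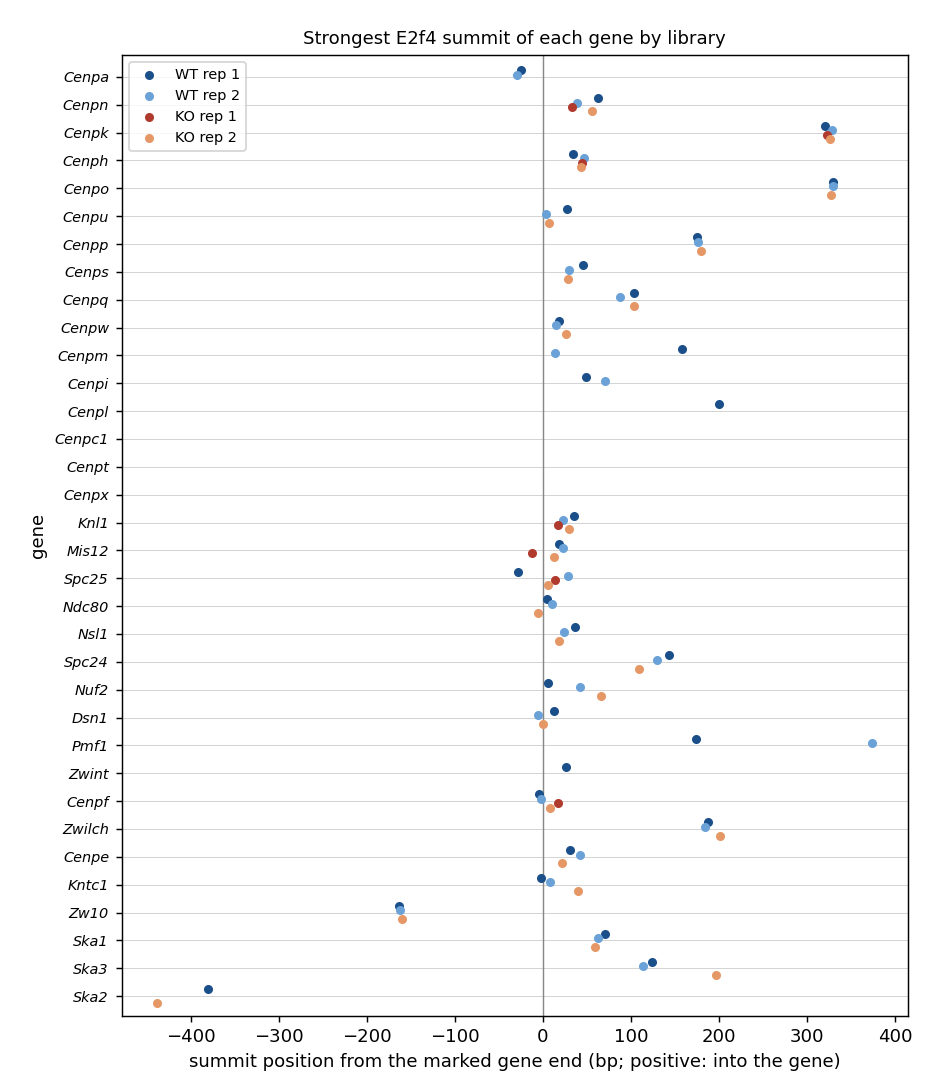
The position of the strongest E2f4 summit of each gene is plotted in bp from the marked gene end, positive into the gene, with 1 point per library. Points of a gene from different libraries lie close together, within a median span of 19 bp, also where the site is far from the end as at Cenpk, Cenpo and Zw10.

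Some summits lay close to E2F or CHR letters and others did not. The stretches below hold the letters in capitals with up to 10 bases on each side, on the gene's strand and cut where the RefSeq promoter ends, for genes with a summit within 20 bp of the centre of the letters in at least 1 library. The first group shows E2F letters and the second CHR letters.
Cenph, chr13:100775850-100775867, minus strand: caatttcgtgGCGGGAAg
Cenpn, chr8:116921736-116921762, plus strand: aagcacctcgGCGGGAAccgctgcaga
Cenpo, chr12:4233916-4233932, minus strand: gttgctctcgGCGGGAA
Cenps, chr4:149137558-149137584, minus strand: cagaggtagcGCGGGAAagtctgagcc
Zw10, chr9:49055406-49055432, plus strand: aaaaaaaccgGCGGGAAcagactggcg

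The CHR stretches follow, and Zw10 and Cenpn appear in both groups.
Cenpf, chr1:189688069-189688094, minus strand: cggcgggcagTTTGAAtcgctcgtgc
Cenpn, chr8:116921721-116921746, plus strand: cattggcggcTTCAAAagcacctcgg
Cenpw, chr10:30200550-30200575, minus strand: cggcggccaaTTCAAAtcgaccactc
Spc25, chr2:69206174-69206199, minus strand: cggtggagagTTTGAAattgaaagac
Knl1, chr2:119047140-119047165, plus strand: ggcggttagaTTTGAAtacttcaggg
Zw10, chr9:49055423-49055448, plus strand: cagactggcgTTTGAAaacctgtagg
Ska3, chr14:57826162-57826187, minus strand: ctgcgcaggaTTCAAAtgtgtagcgc
Kntc1, chr5:123749708-123749733, plus strand: ctcccgccaaTTCAAAtcagtggcag

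All 5 E2F stretches, chosen by the 20 bp limit, carry GCGGGAA, the reverse complement of TTCCCGC, on the gene's strand. E2F letters outside these stretches also ran the other way, as TTCCCGC at Cenpm and TTCGCGC at Cenps. The CHR letters appear in both orientations. At Zw10, whose peak lies outside the gene, the 3 summits were 3 to 6 bp from the centre of the E2F letters. At Cenpo they were 7 to 9 bp away and at Cenph 2 to 15 bp over 4 libraries. At Cenps they were 1, 1 and 16 bp away, and at Cenpn 0 to 29 bp. At Knl1 the 4 summits were 1.5 to 16.5 bp from the centre of the CHR letters. At Cenpw they were 14.5 to 25.5 bp away, at Zw10 19.5 to 22.5 bp, at Cenpf 8.5 to 30.5 bp and at Spc25 1.5 to 54.5 bp. At Dsn1 they were 195 to 214 bp from its E2F letters. Among the 10 genes with CHR letters and a summit in the promoter, 2 had the summit within 20 bp in WT replicate 1 (20%, against 50.5% of other such genes) and 3 in WT replicate 2 (30% against 50.3%). In KO the numbers were 4 of 4 in replicate 1 (other genes 56.7%) and 5 of 8 in replicate 2 (55.9%). For E2F letters they were 4 of 6 and 5 of 6 in WT (other genes 48% and 58.2%), and 2 of 2 and 4 of 6 in KO (52.4% and 55%).

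RefSeq promoters of 300 bases (250 before the start and 50 from it) were listed for 30 of the 34 genes. E2F letters occurred in 10 of the 30 (33.3%), in 12.3% of all 17492 protein-coding genes with a promoter and in 42% of the genes called in both WT libraries. CHR letters occurred in 12 of the 30 (40%), in 17.2% of all genes and in 29.4% of those called in both WT libraries. Both occurred in 3 of the 30, Cenpl, Cenpn and Zw10 (10%), and in 1.35% of all genes. Among the 24 genes with a promoter that were called in both WT libraries, 7 held E2F letters and 11 CHR letters, so most of these promoters carried no E2F letters in the window searched. These shares are descriptions of letters, with no test.

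Around most of these genes H3K27ac covered a longer stretch in KO than in WT. Within 5000 bp of the marked end the covered length was longer in KO at 28 of the 34 genes (82.4%) and shorter at 6, with medians of 1740 bp in WT and 1980 bp in KO. The median difference, KO minus WT, was 504 bp, against 35 bp over the 14188 genes with any H3K27ac in that window. A gene was called longer or shorter where the larger length exceeded the smaller by over 25%. By this rule H3K27ac was longer in KO at 18 genes (52.9%), where 25.7% of all genes with the mark were, and shorter at 3, where 23.3% were. The other genes with E2f4 called in WT replicates 1 and 2, 770 in number, had a median difference of 285 bp, and 40.6% of them were called longer. The KO list held less H3K27ac over the genome than the WT list, 54652 against 63321 regions. With 1 library per genotype, no difference in a mark has a replicate check or a test.

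Counted by any amount, longer H3K27ac in KO occurred in every role, though not evenly. By this count it was longer at 52.5% of all genes with the mark and at 70.3% of the other genes with E2f4 in WT. Among the 34 the longer ones were Cenpa itself, 11 of 15 in the constitutive network and 9 of 10 in the KNL1, MIS12 and NDC80 complexes. They also included 4 of 5 in the corona group and all 3 SKA genes. Some of these differences were small, as at Cenpe (1769 to 1780 bp) and Zwint (1415 to 1429 bp). By the percent rule above, those called longer were Cenpa, 9 of 15, 5 of 10, 1 of 5 and 2 of 3, in the same order. In the corona group 1 gene was called longer and 1 shorter, so by that rule this group showed no shift. Of all genes with the mark, 25.7% were called longer. At Cenpf no H3K27ac was called in WT (0 bp) and 1904 bp were covered in KO, and at Cenph it went from 0 to 802 bp. At Cenpl it went from 3634 to 5899 bp, at Cenpa from 2279 to 3854 bp, at Pmf1 from 6280 to 7693 bp and at Ska2 from 1511 to 2826 bp. Pmf1 shares its end with Slc25a44, so part of its length may belong to the neighbour.

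The 6 genes with shorter H3K27ac in KO included 3 of the constitutive network below the 25% limit, Cenpn (2030 to 1790 bp), Cenpq (2822 to 2322 bp) and Cenpt (5788 to 5670 bp). Those called shorter were Cenpu (3372 to 2194 bp), Spc25 (2155 to 1498 bp) and Zw10 (1710 to 1350 bp). Spc25 and Cenpn are among the genes with E2f4 in all 4 libraries, as are Cenpf and Cenph, so that genes with E2f4 throughout lay on both sides.

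At the marked end itself, 5 genes had no H3K27ac region in WT (Cenpf, Cenph, Cenpi, Cenps and Ska2), and 1 had none in KO (Cenpw). H3K4me2 covered the marked end of all 34 genes in both genotypes. Every E2f4 summit at these genes lay in an H3K4me2 region of its genotype. Both are in part built in, since the marked end was chosen by its H3K4me2 and summits were counted only near it. H3K27ac regions held 28 of 32 summits in WT replicate 1, 24 of 28 in WT replicate 2, 7 of 7 in KO replicate 1 and 25 of 25 in KO replicate 2. On the gene side of the end H3K27ac was longer in KO at 27 genes (median difference 288.5 bp), and on the outer side at 22 (105 bp). Shares over all genes, or over all E2f4 summits of a library, are not given here. These counts are therefore not shown to be particular to the 34 genes.

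**Figure D3:**
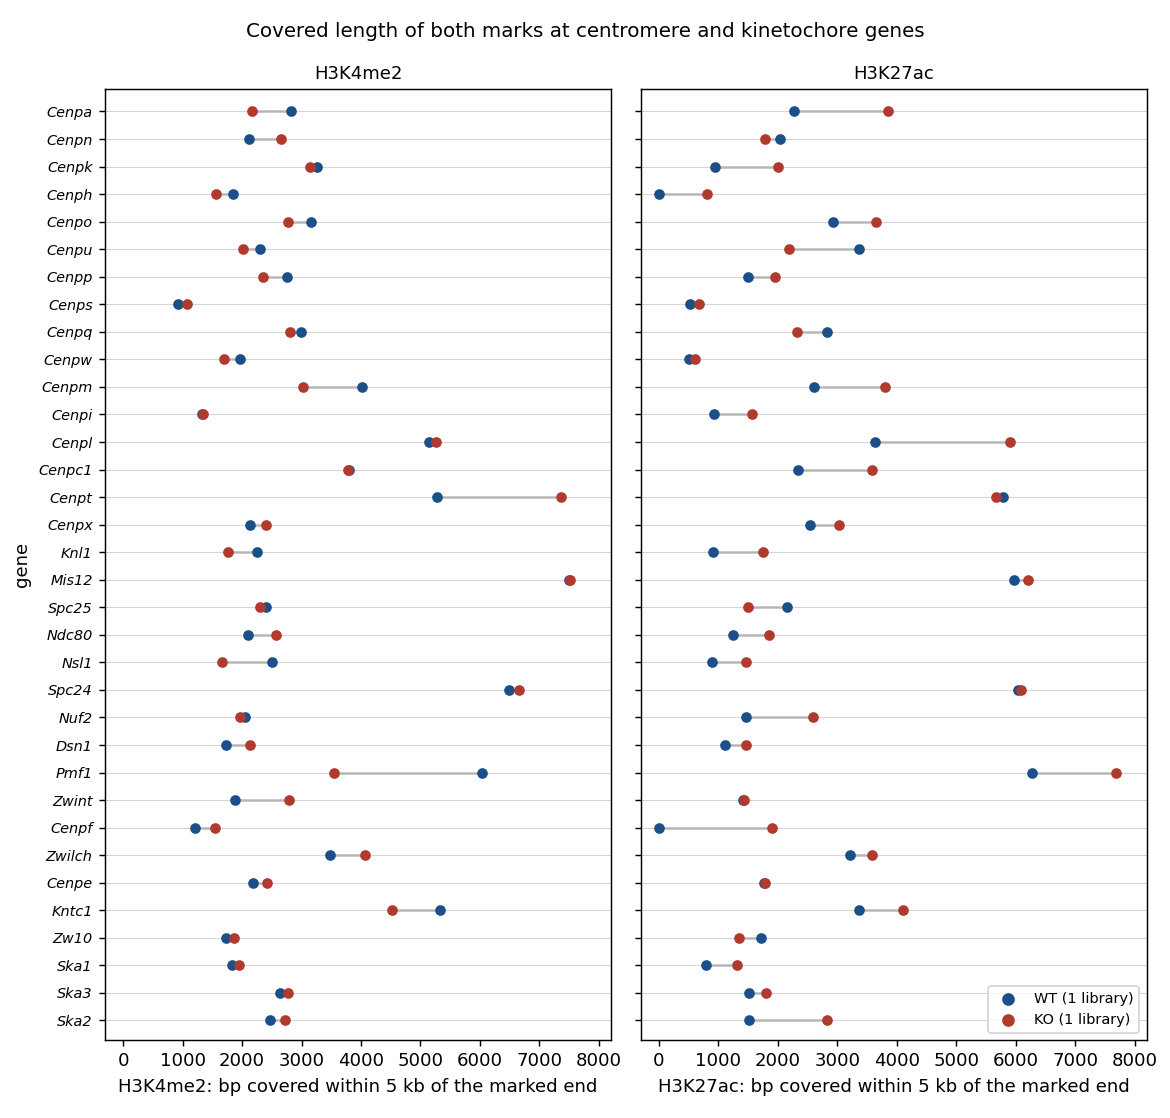
For each gene the bp covered by H3K4me2 (left) and H3K27ac (right) within 5000 bp of the marked end are shown for the WT and the KO library, joined by a line, with 1 library per point. KO points lie to the right of WT points at 28 genes for H3K27ac and at 18 for H3K4me2.

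H3K4me2 showed no such shift. Its covered length was longer in KO at 18 genes and shorter at 16, with medians of 2442 bp in WT and 2498 bp in KO and a median difference of 16 bp. Over the 16591 genes with the mark the median difference was 128 bp. By the 25% rule it was longer at 4 genes (11.8%), against 24.4% of all genes with the mark, and shorter at 5 (14.7%), against 12.1%. The other genes with E2f4 in WT, 775 in number, were near the 34 genes, with 9.55% longer, 11.6% shorter and a median difference of -57 bp. The sign of the median difference was not stable, being -79 bp within 10000 bp and -68 bp among regions with −log10 q of 5 or more. Within 1000 bp of the end no gene was called longer or shorter, where 14% and 8.01% of all genes with the mark were. At many of the 34 genes H3K4me2 already filled most of that window in WT, and the part of this in the counts was not tested.

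The 5 genes with shorter H3K4me2 were Pmf1 (6027 bp in WT and 3552 bp in KO), Nsl1 (2501 and 1664 bp), Cenpm (4022 and 3028 bp), Cenpa (2831 and 2171 bp) and Knl1 (2249 and 1765 bp). The 4 longer ones were Cenpt (5283 and 7368 bp), Zwint (1880 and 2790 bp), Cenpf (1214 and 1540 bp) and Cenpn (2113 and 2649 bp). Kntc1 (5322 and 4527 bp), Zwilch (3479 and 4068 bp) and Ndc80 (2101 and 2574 bp) had large differences below the 25% limit. Pmf1, Nsl1, Cenpm, Cenpa and Knl1 all had longer H3K27ac in KO, opposite in direction to their H3K4me2. Of all 34 genes, 28 (82.4%) had longer H3K27ac in KO, so the 5 do not stand apart. Of the 4 with longer H3K4me2, Cenpf and Zwint had longer H3K27ac in KO, and Cenpt and Cenpn shorter.

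Of the 4 genes without a KO E2f4 summit, Cenpa, Cenpm and Pmf1 had H3K4me2 called shorter in KO, and Cenpi was nearly equal (1329 bp in WT and 1348 bp in KO). H3K27ac was longer in KO at all 4, Cenpi going from 926 to 1557 bp and Cenpm from 2605 to 3804 bp. The median difference of H3K27ac was 1306 bp over these 4, 355 bp over the 17 called in KO replicate 2 and not in KO replicate 1, 802 bp over the 7 called in all libraries and 871.5 bp over the 6 with 1 or no WT summit. With so few genes this is given as a description.

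**Figure D4:**
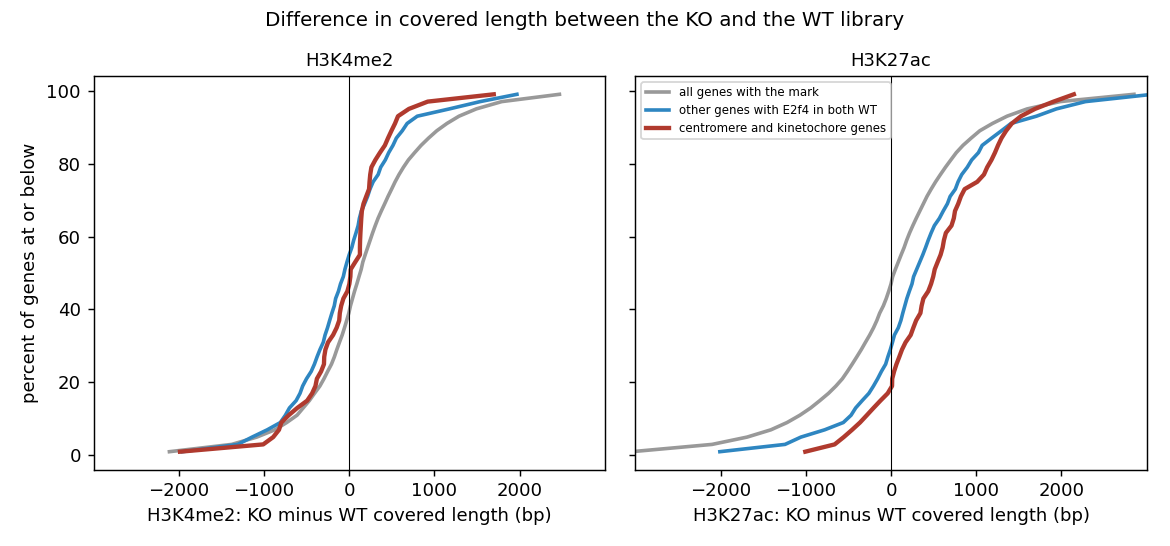
Curves give the percent of genes at or below each difference in covered length, KO minus WT in bp, for the 34 genes, for other genes with E2f4 in both WT libraries and for all genes with the mark. For H3K27ac the curve of the 34 genes is shifted to longer lengths in KO (median 504 bp against 35 bp for all genes), and for H3K4me2 it is not (16 bp against 128 bp).

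Marker genes of other cell types differed between the mark libraries as well. For H3K27ac the summed length went from 24081 bp in WT to 21351 bp in KO over 5 endothelial genes, from 20774 to 18491 bp over 5 macrophage genes, from 14201 to 8722 bp over 5 stellate cell and fibroblast genes and from 1864 to 0 bp over 5 cholangiocyte genes. It went from 2740 to 4019 bp over 5 lymphocyte genes, all of it at Ptprc in KO, with Cd3e and Cd2 at 0 in both genotypes. No H3K27ac was called at 4 of the 5 cholangiocyte genes in WT, and at 2 of the 5 stellate cell and fibroblast genes in KO. Over 8 hepatocyte genes the sum went from 60152 to 64271 bp. For H3K4me2 it went from 13154 to 14212 bp over the macrophage genes, from 8706 to 12258 bp over the stellate cell and fibroblast genes and from 6007 to 5056 bp over the cholangiocyte genes. The part of cell composition in the mark lengths at centromere and kinetochore genes was not tested.

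Of the 34 genes, 15 have another protein-coding gene end less than 1000 bp from the marked end, and peaks and marks there cannot be assigned to one gene. The nearest are Lrrc45 at 7 bp from Cenpx, Thap11 at 17 bp from Cenpt, Spdya at 38 bp from Ndc80 and Slc25a44 at 49 bp from Pmf1. E2f4 was called in both WT libraries at 11 of these 15 genes and at 17 of the 19 with an end of their own. H3K27ac was longer in KO at 13 of the 15 and at 15 of the 19. The 3 genes without any summit at the marked end were Cenpt and Cenpx, which share it, and Cenpc1, which does not.

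Another 28 genes of the same pathway, covering CENP-A loading, the spindle checkpoint, the chromosomal passenger complex and kinetochore microtubule factors, were counted in the same way. A summit was called at 19 and 17 of them in WT and at 12 and 17 in KO. The shares of genes with H3K4me2 at the marked end were 9.11% and 6.54% in WT and 1.58% and 4.51% in KO. Of the 17 in both WT libraries, 12 were called in all 4, against 7 of 28 for the centromere and kinetochore genes and 28.4% of all genes called in both WT libraries. The differences between these shares were not tested. Among them were the CENP-A chaperone gene Hjurp (ranks 59 and 67 in WT, 136 and 66 in KO) and the loading factor gene Mis18a (60 and 20 in WT, 83 and 54 in KO). Oip5, another Mis18 subunit gene, was called in WT replicate 1 (585) and KO replicate 2 (581). Itgb3bp, which encodes the remaining member of the CENP-O subcomplex, had none. Bub1b, a checkpoint kinase gene, was the 1 gene of the 28 called in both WT libraries and in no KO library. H3K27ac was longer in KO by any amount at 21 of the 28 (52.5% of all genes with the mark) and H3K4me2 at 9 (60.3% of all genes). By the 25% rule H3K27ac was longer at 13 of the 28 and shorter at 1, with a median difference of 365.5 bp. Over all genes with the mark, 25.7% were longer and 23.3% shorter, with a median difference of 35 bp.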

How the data were processed

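ChIP-seq peak lists of 8 libraries were used (E2f4 with 2 per genotype, each mark with 1 per genotype), with groups from the sample titles. The data of 8 inputs were not used here. The submitters' processing notes name build mm10 and, with no role, the tools MACS2 2.0.10.20131216, Bowtie2 2.2.3, HOMER and Picard. Each library had its own list, so peaks were called per library. The deposited fold enrichment is a ratio belonging to its peak, and the deposited −log10 q-value ordered peaks within a list. The deposited −log10 p-value and score were not used, and the lists hold no counts.

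Gene ends came from RefSeq (GRCm38.p6) for 21887 protein-coding genes. The marked end has more H3K4me2 within 2000 bp over both genotypes, H3K27ac deciding ties. At all 30 genes with a listed promoter it is the upstream end. Summits were counted within 1000 bp and covered bases within 5000 bp, and a mark was called longer or shorter where one length exceeded the other by over 25%. For letters, the promoter nearest the mean summit was taken. Exons, introns and UTRs were not analysed here. Python 3.11.15 and NumPy 2.4.6 were used, and the functions were tested on simulated data.

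All 34 genes could be named. Some other genes are not reported here. In full were to be given those called in all 4 libraries, those called in WT alone, and the 5 largest differences each way per mark. The genes, lists and rules were chosen with earlier results of these data known. Promoters printed follow ranks, leaving out genes whose summits lie outside the window, a restriction made after the values were seen, as were the short stretches and their limit of 20 bp. The pairing of same-numbered WT and KO libraries is not stated by the labels.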

Additional observations from a re-analysis of the deposited data

How the results depend on the processing

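The 28 genes called in WT replicates 1 and 2 became 12 when every list kept its 287 strongest peaks, where 1.62% of genes with H3K4me2 were called, and the number stayed within 1.5 times under the other alternatives run. In lists of equal length 0 genes lacked a KO summit in place of 4, and the difference in mean number of genes, KO minus WT, was -3 in place of -13.5. With peaks of −log10 q 10 or more, genes called in all 4 libraries numbered 4 and those called in WT alone 2. With 1 E2f4 library left out at a time, genes called in all remaining libraries numbered 7 to 24, genes called in WT and in no KO library 4 to 21, and the difference lay between -22.5 and -4.5. The upper values 24 and 21 are those without KO replicate 1 and without KO replicate 2. With same-numbered libraries paired (replicate block) the difference was -13.5 again, as the mean of -24 and -3, and pairing cannot change a count. The labels do not pair these libraries, and deviations of same-numbered libraries correlated at 0.213 over 1591 genes, with 2 pairs.

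For H3K4me2 the median difference changed sign within 10000 bp (-79 bp), with either gene end (-95 bp), with regions of −log10 q 5 or more (-68 bp) and in lists of equal length (-32 bp), and was 1.5 bp at RefSeq starts and 0 bp within 1000 bp. Within 1000 bp, a window mostly filled by the mark at many of these genes, 0 genes were longer and 0 shorter by the 25% rule. At 1.5-fold 0 were longer and 2 shorter. The shares of all genes with the mark were 14% longer and 8.01% shorter within 1000 bp, and 12.7% and 6.49% at 1.5-fold. For H3K27ac the median difference was 174 bp within 1000 bp, and 5 genes were shorter with either end and 1 at 1.5-fold, while the number longer stayed between 12 and 19. Of all genes with the mark, 25.4% were shorter with either end and 14.3% at 1.5-fold, and the share longer lay between 15.2% and 27.4%. With 1 more T, E2F letters occurred in 4 promoters (13.3%, against 2.96% of all genes with a promoter). Before the start alone CHR letters occurred in 7 (23.3%, against 15.6%). Causes of these shifts were not tested. Depth is unknown, so a missing peak does not show absence.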

Other observations

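Some E2f4 peaks near these genes lay at other gene ends. A summit at Trim37 beside Ska2 was called in both WT libraries and in KO replicate 2 (ranks 1363, 846 and 494). A summit at Nutf2 beside Cenpt was called in WT replicate 1 (rank 1211).

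Over all promoters with a summit inside the 300 bases, the shares of centromere and kinetochore genes and of other genes were as follows. They were 27.3% against 45.9% for E2F letters and 45.5% against 27% for CHR letters in WT replicate 1, and 30% against 53.2% and 50% against 32.1% in WT replicate 2. In KO replicate 2 the shares were 35.3% against 52.2% and 47.1% against 37.9%, and in KO replicate 1, with 7 genes, 28.6% against 47.7% and 57.1% against 50.8%. These differences were not tested, and the libraries share promoters.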
